A study of Mus musculus with 2 samples.

Results

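A total of 436 of 13470 tumor-infiltrating immune cells carried the transcripts of nonclassical monocytes, 132 of 7241 in the control library and 304 of 6229 in the creatine library. The cells were selected on raw counts of unique molecular identifiers (UMIs, each standing for 1 captured transcript). A cell was taken when *Ace*, *Adgre4* and *Treml4* together gave at least 3 UMIs, *Cd3d*, *Cd3e* and *Cd3g* at most 1, *C1qa*, *C1qb* and *C1qc* fewer than 10, and *Xcr1* and *Clec9a* 0. Cells with over 25% of their UMIs from mitochondrial genes had been left out first. The levels of these genes in the selected cells are therefore a description. Some lists below hold a few of these genes, such as those of complement, C1q macrophage and type 1 dendritic cell genes. Their values are descriptive to that extent.

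Both libraries came from adult wild-type C57BL/6J mice, male unless the study states otherwise, that carried subcutaneous tumors of B16-OVA, a mouse melanoma line engineered to make ovalbumin. The control mice received PBS and the creatine group 10.5 mg of creatine per mouse each day by intraperitoneal injection. By the labels, tumors were taken on day 14 and 4 were combined for each group, and living CD45.2+ cells were sorted and loaded for droplet 3′ single-cell RNA sequencing. Other passages of the study give another day and number of mice, and the protocol entry of the control sample also mentions creatine although its treatment entry is PBS. Each condition is 1 library of pooled animals, differences between mice cannot be seen, and every interval given here covers counting error only. With no replicate library, no test between the conditions was possible and treatment cannot be told apart from library.

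Nonclassical monocytes arise from classical Ly6C-high monocytes under the control of the nuclear receptor NR4A1, lose the chemokine receptor CCR2, gain CX3CR1 and the integrin LFA-1, and crawl along the inside of blood vessels. Classical monocytes enter inflamed tissue through CCR2 and can become macrophages or dendritic cells there. Both respond to type I interferon and to interferon-gamma, which act through STAT proteins and interferon regulatory factors on short DNA elements near their target genes.

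A set of 5 interferon-responsive genes, chosen because they stood higher in the nonclassical monocytes of the creatine library, is shown by the 220 bases before their start sites, because they give the DNA element that this group of promoters shares. Sequences are from RefSeq on GRCm38.p6, written 5′ to 3′ on the strand of the gene, and capitals mark every match of GAAANNGAA, the core of the interferon-stimulated response element, read on either strand. The promoter of *Isg15* spans chr4:156200819-156201038 on the minus strand, that of *Ifit1* chr19:34640669-34640888 on the plus strand, that of *Rsad2* chr12:26456453-26456672 on the minus strand, that of *Cxcl10* chr5:92348890-92349109 on the minus strand and that of *Gbp2* chr3:142620443-142620662 on the plus strand.
Isg15: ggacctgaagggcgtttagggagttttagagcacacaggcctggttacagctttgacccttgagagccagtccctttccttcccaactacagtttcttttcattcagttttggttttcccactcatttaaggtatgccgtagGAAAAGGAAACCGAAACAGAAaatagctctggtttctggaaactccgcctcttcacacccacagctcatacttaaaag
Ifit1: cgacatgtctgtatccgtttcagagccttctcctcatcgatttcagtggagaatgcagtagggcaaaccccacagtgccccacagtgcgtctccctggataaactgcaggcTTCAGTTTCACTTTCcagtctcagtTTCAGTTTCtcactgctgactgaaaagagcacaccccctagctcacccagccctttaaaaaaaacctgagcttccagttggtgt
Rsad2: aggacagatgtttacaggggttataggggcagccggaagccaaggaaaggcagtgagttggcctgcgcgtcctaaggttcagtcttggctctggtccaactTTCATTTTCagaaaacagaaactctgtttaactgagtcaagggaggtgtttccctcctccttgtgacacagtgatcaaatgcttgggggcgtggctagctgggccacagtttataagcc
Cxcl10: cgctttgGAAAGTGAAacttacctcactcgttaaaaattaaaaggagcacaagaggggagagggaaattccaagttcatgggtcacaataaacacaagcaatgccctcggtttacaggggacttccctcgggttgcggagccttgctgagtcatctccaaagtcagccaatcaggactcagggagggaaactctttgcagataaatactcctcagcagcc
Gbp2: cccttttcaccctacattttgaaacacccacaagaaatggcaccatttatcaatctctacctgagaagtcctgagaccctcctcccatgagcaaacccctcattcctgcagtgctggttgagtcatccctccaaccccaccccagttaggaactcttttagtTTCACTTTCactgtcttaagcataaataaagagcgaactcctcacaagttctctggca

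Over the 250 bases before and 50 bases after the start sites, GAAANNGAA was found in 18 of the 27 type I interferon-stimulated genes of the list that matched the table by symbol, in all 10 matched interferon-gamma GTPase genes and in 0 of 7 MHC class II genes, against 9.76% of all 27025 genes. Among the genes with the largest differences between the libraries, 7 of the 14 matched that were higher with creatine held it and 0 of the 9 matched that were lower. TTCNNNGAA, the core of the gamma-activated site of interferon-gamma responses, was in 6 of the 10 GTPase genes and 3 of the 27 interferon-stimulated genes, against 9.55% of all genes. It was in 0 of the 14 genes that were higher with creatine, in 2 of the 9 that were lower and in 0 of 22 chemokine and cytokine genes, of which 4 held GAAANNGAA. AAAGGTCA, the site that a single NR4A1 molecule binds, was in 0 of the 16 matched nonclassical marker genes and in 1.70% of all genes. The motifs were read on both strands and can overlap, and a match describes the letters in these windows and not a bound site.

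*Ace* encodes angiotensin-converting enzyme and lies at chr11:105967945-105989964 (mm10, plus strand). The selected cells held *Ace* at 620 CPM (UMIs summed over the selected cells and scaled to the same total in every group) in the control and 486 CPM in the creatine library, with a UMI in 88.6% and 87.5% of cells. *Adgre4*, an adhesion G protein-coupled receptor gene of the F4/80 family (chr17:55749984-55853662, plus strand), was at 377 and 319 CPM. *Treml4*, a receptor gene of the TREM family (chr17:48264295-48275360, plus strand), was at 266 and 286 CPM. All 3 genes had a UMI in 55.3% of the control and 59.5% of the creatine cells, and 9.09% and 8.55% passed on 1 gene alone. The median sum of the 3 was 7 UMIs in each library, with highest sums of 34 and 50.

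The label of the cells was checked against genes that the selection did not use. *Ear2*, an eosinophil-associated ribonuclease gene (chr14:44102654-44103534, plus strand), was at 697 CPM (644 to 754) in the control and 451 CPM (426 to 477) in the creatine nonclassical monocytes, against 18.0 and 28.1 CPM in classical monocytes. *Ceacam1*, a cell adhesion gene (chr7:25461707-25477603, minus strand), was at 216 and 218 CPM against 28.9 and 44.7 CPM. *Nr4a1* (chr15:101254269-101274795, plus strand) was at 537 and 504 CPM against 82.0 and 102 CPM. These genes were thus on the nonclassical side in each library, as the name of the cells has it. Of the last 500 bases of the transcripts, where 3′ reads fall, 39.1% of 50-base windows of *Ear2* and 93.5% of those of *Ceacam1* also occur in related genes such as *Ear1* and *Ceacam2*, so counts of these genes are uncertain.

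The classical monocytes used for comparison had at least 1 UMI of *Vcan* and of *Ly6c2*, at least 5 of both together, at least 3 of *Lyz2*, fewer than 3 of the nonclassical genes, and met the other limits above. There were 149 control and 190 creatine cells of this kind. T cells, macrophages with at least 10 C1q UMIs, and all cells outside the nonclassical selection served as further points of comparison.

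**Figure D1:**
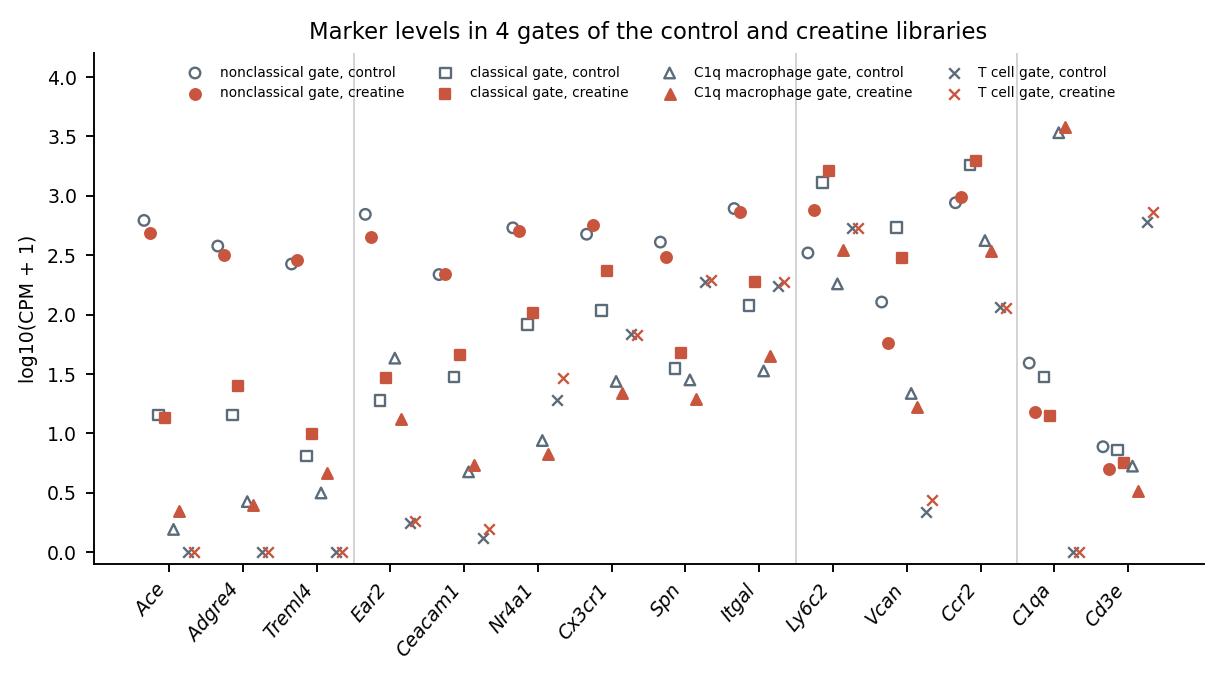
Levels (log10 of CPM + 1) of marker genes in the nonclassical, classical, C1q macrophage and T cell selections of the control and the creatine library. *Ace*, *Adgre4* and *Treml4* chose the nonclassical cells, and *Ear2*, which did not, was at 697 and 451 CPM there against 18.0 and 28.1 CPM in classical monocytes.

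The selection has a threshold on few UMIs, so cells just inside and just outside it were compared. Among cells that met the other limits, the control library had 24 with 2 UMIs of the 3 genes, 24 with 3 and 84 with 6 or more, and the creatine library 72, 58 and 187. *Ear2* stood at 94.4, 240 and 972 CPM over these bins in the control and at 42.3, 112 and 637 CPM in the creatine library. *Ly6c2*, the Ly6C antigen gene of classical monocytes, stood at 496, 688 and 170 CPM in the control and at 914, 1428 and 463 CPM in the creatine library, higher at 3 UMIs than at 2 and lowest at 6 or more. Cells at the threshold of 3 thus had less *Ear2* and more *Ly6c2* than cells well inside it, in each library. *Cd300e*, an activating receptor gene, had 0 UMIs at a sum of 3 in both libraries and 183 and 106 CPM at 6 or more.

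Nonclassical monocytes made up 1.82% (exact 95% interval 1.53 to 2.16) of control and 4.88% (4.36 to 5.44) of creatine cells, a ratio of 2.68 (2.18 to 3.31). Classical monocytes made up 2.06% and 3.05%, a ratio of 1.48 (1.19 to 1.85), and C1q macrophages 12% and 5.27%, a ratio of 0.438. Within both monocyte selections together, 47.0% (41.0 to 53.0) of 281 control and 61.5% (57.1 to 65.8) of 494 creatine monocytes were nonclassical. Since the number of UMIs a cell gives decides whether it reaches 3, every cell was thinned to 2000 UMIs, which left out 613 control and 298 creatine cells that were shallower. The share was then 1.03% and 1.94%, a ratio of 1.89 (1.39 to 2.59), and that of classical monocytes had a ratio of 1.48 (0.927 to 2.38). Of the monocytes selected after thinning, 66.7% (56.6 to 75.7) of 102 control and 71.9% (64.2 to 78.7) of 160 creatine cells were nonclassical, so these shares overlapped at equal depth. Shares are of sorted CD45.2+ cells, so more nonclassical monocytes and fewer cells of other types cannot be told apart.

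The nonclassical cells had a median of 6510 UMIs and 2269 genes in the control and 8759 UMIs and 2723 genes in the creatine library. Classical monocytes had a median of 8124 and 9784.5 UMIs. The summed nonclassical counts were 892059 and 2761765 UMIs, so that 1 UMI was worth 1.12 CPM in the control and 0.362 CPM in the creatine library. The control sum is the shallower of the pair, and its low genes carry the wider intervals. A median of 4.00% and 3.67% of UMIs came from mitochondrial genes. The libraries shared 30 cell barcodes, of which 0 were in the control and 1 in the creatine selection.

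Markers of other cell types were counted in the selected cells. B cell markers summed to 102 CPM in the control and 174 CPM in the creatine nonclassical monocytes, mostly *Ighm*, which gave 71 and 350 UMIs, while *Cd79a* gave 1 and 9 and *Ms4a1* 0 and 5 UMIs. Neutrophil markers summed to 183 and 274 CPM, led by *Csf3r* (104 and 108 CPM), with *Ly6g* at 0 and 1 UMI and *Retnlg* at 0 in both. Of the same list, *S100a9* gave 1 and 167 UMIs and *S100a8* 7 and 100. In the creatine library 1 cell held 164 of the *S100a9* and 1 cell 89 of the *S100a8* UMIs. Plasmacytoid dendritic cell markers summed to 205 and 319 CPM, led by *Bst2*, with 1 UMI of *Siglech* in each library. *Cd79a*, *Ms4a1*, *Ly6g*, *Retnlg* and *Siglech* were thus at or near 0, while *S100a8* and *S100a9* were not in the creatine library. *Csf3r* and *Bst2* were also found in classical monocytes, at 76.5 and 92.5 CPM and at 288 and 304 CPM. T cell markers summed to 138 and 94.9 CPM, NK cell markers, led by *Gzma*, to 312 and 238 CPM, melanoma markers to 51.6 and 33.3 CPM, platelet markers to 0 and 2.17 CPM and red cell markers to 0 in both. Cells with at least 3 UMIs of a list numbered 8 and 53 for B cell markers, 6 and 26 for NK cell markers, 19 and 73 for neutrophil markers and 24 and 131 for plasmacytoid dendritic markers, led by *Bst2*. Markers of type 1 dendritic cells, 2 of which the selection sets to 0, reached 3 UMIs in 10 and 69 cells, led by *Wdfy4* in the control and *Batf3* in the creatine library. Type 2 dendritic cell markers, led by *Itgax*, summed to 194 and 147 CPM and reached 3 UMIs in 21 and 50 cells. Cells bearing markers of these dendritic types were not left out in the filters below. How far cells captured together added to the results was not tested by a doublet caller. Leaving out cells with 3 or more UMIs of 16 defining markers of B, NK, neutrophil, plasmacytoid dendritic and melanoma cells kept 126 control and 286 creatine cells, and the ratio of shares was 2.64. Leaving out cells with 3 or more UMIs of the whole marker lists of these types kept 51 and 56 cells, with a ratio of 1.28, and with *Bst2* not counted the ratio was 1.49.

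Nonclassical monocytes stood above classical monocytes in nearly all of the nonclassical marker genes that were measured. Of 5221 genes with at least 50 UMIs over both selections in each library, 127 (2.43%) were at least 2-fold higher in the nonclassical cells of both libraries and 102 (1.95%) at least 2-fold lower in both. The median log2 ratio of nonclassical over classical cells over all these genes was 0.06 (control) and 0.03 (creatine). Of the 19 nonclassical marker genes that were measured, 18 passed in both libraries, with a median log2 ratio of 2.90 in control and 2.31 in creatine cells. Of 14 classical marker genes, 7 were at least 2-fold lower in both, with medians of -1.12 and -1.04. The classical cells were chosen by *Ly6c2* and *Vcan*, so these values are part of how the groups were formed.

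Genes for patrolling and adhesion were among those with the largest ratios. *Spn*, which encodes the sialoglycoprotein CD43 by which mouse nonclassical monocytes are sorted, was at 407 and 304 CPM against 34.4 and 46.3 CPM in classical monocytes, with log2 ratios of 3.57 (control) and 2.71 (creatine). *Itgal*, the alpha chain of LFA-1, was at 780 and 732 CPM with log2 ratios of 2.73 and 1.98. *Cx3cr1*, the fractalkine receptor, was at 474 and 568 CPM with log2 ratios of 2.14 and 1.30. In classical monocytes *Cx3cr1* stood at 108 CPM in the control and 231 CPM in the creatine library. *S1pr5*, a sphingosine-1-phosphate receptor gene used for exit from bone marrow, had log2 ratios of 3.75 and 3.12. Of 17 adhesion genes, 5 were higher and 3 lower in both libraries, among the lower *Ccr1*, a chemokine receptor gene (-2.17 and -2.35). *Ccr2* was at 873 and 982 CPM, with log2 ratios of -1.06 and -0.99, so the receptor of classical monocytes was lower and not lost.

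Of 25 transcription factor genes, 6 were at least 2-fold higher in both libraries and 0 lower. Beside *Nr4a1* (log2 ratios of 2.71 and 2.31) these were *Hes1*, a target of Notch signalling (3.55 and 2.19), *Pou2f2*, an octamer-binding factor gene (2.15 and 1.5), the Krüppel-like factor genes *Klf2* (1.75 and 1.16) and *Klf4* (1.74 and 1.71), and *Bcl6*, a repressor gene (1.51 and 1.16). *Bcl2*, which protects cells from apoptosis, was at 130 and 98.1 CPM with log2 ratios of 2.68 and 2.43, and was the only one of 15 survival genes to pass in both libraries.

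Of 15 lipid-handling genes, 3 were at least 2-fold higher and 2 at least 2-fold lower in both libraries, with median log2 ratios of 0.19 (control) and 0.35 (creatine). *Cd36*, a scavenger receptor and fatty acid transporter gene, was at 219 and 143 CPM against 18.7 and 5.20 CPM in classical monocytes, with log2 ratios of 3.54 (control) and 4.78 (creatine). *Fabp4*, a fatty acid-binding protein gene, was at 163 and 55.8 CPM with log2 ratios of 4.12 and 5.74. *Pltp*, the phospholipid transfer protein gene, had ratios of 2.23 and 1.58, while *Lpl*, lipoprotein lipase, was lower, at -2.84 and -1.85, as was the scavenger receptor gene *Msr1*, at -1.71 and -1.05. *Pparg*, which encodes the nuclear receptor that drives *Cd36* and *Fabp4* in other cells, rested on 29 and 72 UMIs, and its log2 ratios were 3.06 and 3.33. *Cd36* and *Fabp4* also stood at 122 and 139 CPM in the control C1q macrophages and 155 and 164 CPM in those of the creatine library, so they set nonclassical monocytes apart from classical ones and not from macrophages.

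The rule for the 15 highest genes added several that are less often used as markers. *Slc12a2*, a sodium-potassium-chloride cotransporter gene, was at 161 and 121 CPM and had 2 and 4 UMIs in classical monocytes, for log2 ratios of 6.69 (4.81 to 9.75) and 5.86 (4.49 to 7.74). *Cd300e* had 3 and 1 UMIs there, for log2 ratios of 5.69 (4.11 to 7.99) and 7.06 (4.57 to 12.4). *Eno3*, the muscle form of the glycolytic enzyme enolase, was at 124 and 135 CPM with log2 ratios of 4.32 and 6.02. These genes were almost absent from classical monocytes, so the size of each ratio rests on a handful of UMIs. *Pglyrp1*, a peptidoglycan-binding protein gene, *Grk3*, a receptor kinase gene, *Stap1*, a signalling adaptor gene, *Cyth3*, an exchange factor gene, and *Cyfip2*, a gene of actin regulation, made up the rest, with log2 ratios from 2.31 to 3.54.

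**Figure D2:**
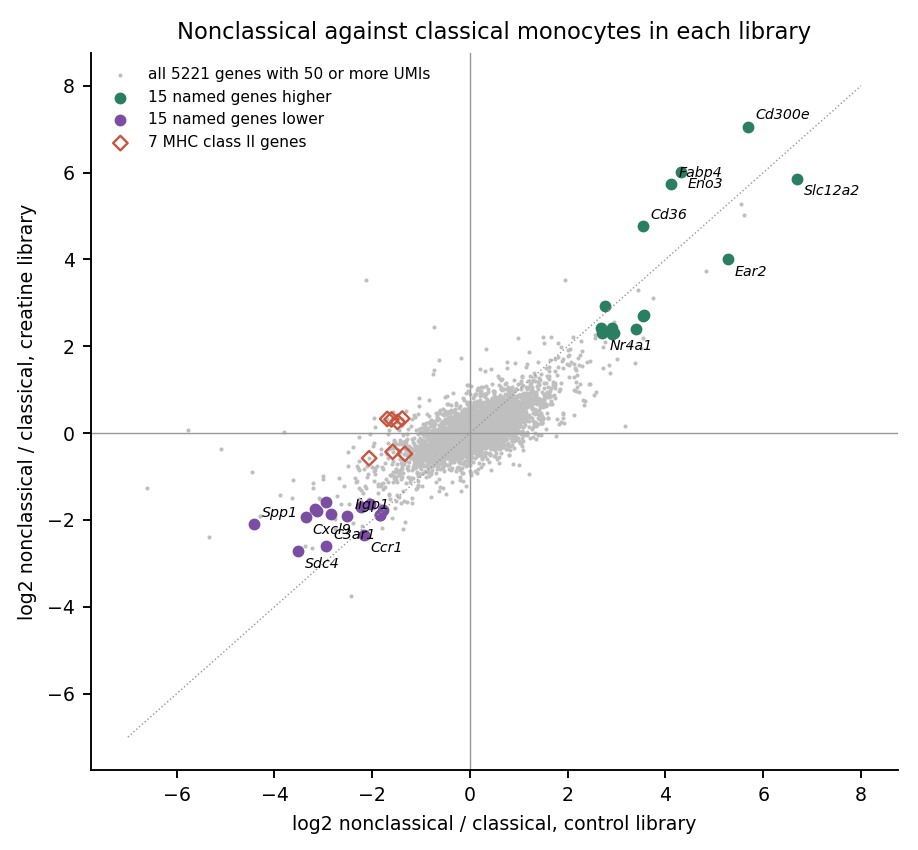
Log2 ratio of CPM in nonclassical over classical monocytes for each measured gene in the control library (x axis) and in the creatine library (y axis), with the 15 highest and 15 lowest genes marked, some of them named, and MHC class II genes as diamonds. The marked genes lie on the same side of 0 in both libraries, and the MHC class II genes lie below 0 in the control library (median -1.58) and near 0 in the creatine library (median 0.26).

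Chemokine and interferon-responsive genes were among those at lower levels in nonclassical monocytes, 6 of 17 chemokine and cytokine genes being at least 2-fold lower in both libraries. *Cxcl9* and *Cxcl10*, chemokines that draw CXCR3-bearing T cells, had log2 ratios of -3.36 and -1.94 and of -3.07 and -1.51. *Ccl2*, the ligand of CCR2, was at 72.9 and 106 CPM against 640 and 365 CPM, with log2 ratios of -3.14 and -1.79. *Spp1* (osteopontin) had log2 ratios of -4.41 and -2.09, the second of which was 0.38 against classical cells with at least 10 UMIs of *Ly6c2* and *Vcan*. *Sdc4* (syndecan-4) had ratios of -3.51 and -2.71, *C3ar1* (the C3a receptor) -2.94 and -2.59 and *Il1rn* (the interleukin-1 receptor antagonist) -2.95 and -1.60. Of 32 type I interferon-stimulated genes, 31 were below classical monocytes in both libraries and 9 at least 2-fold, with medians of -1.28 (control) and -0.67 (creatine). Of 11 interferon-gamma GTPase genes, all were below in both and 3 at least 2-fold, with medians of -1.45 and -0.68. Glycolysis genes had medians of -1.04 and -0.43, with 16 of 19 lower in both libraries. Nuclear-encoded respiratory complex genes had medians of -0.30 and -0.20, none of 74 passing 2-fold in both.

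MHC class II genes, which present peptides to CD4 T cells, did not keep 1 order between the monocyte types. Their median log2 ratio of nonclassical over classical cells was -1.58 (control) and 0.26 (creatine), over 7 genes of which none passed 2-fold in the same direction in both. *H2-Aa* was at 921 and 1007 CPM in nonclassical monocytes against 2408 and 798 CPM in classical monocytes. MHC class I genes differed less, with medians of -0.44 and -0.10 over 18 genes and 1 that was 2-fold higher in both.

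Between the libraries, the nonclassical monocytes of creatine-treated mice had higher levels of interferon-responsive, chemokine and inflammasome genes. Of 6633 genes with at least 50 UMIs over both libraries, 160 (2.41%) were at least 2-fold higher in the creatine library and 66 (0.995%) at least 2-fold lower. The creatine sum is the deeper, so genes high in it reach the limit of 50 UMIs more easily (*Rsad2* with 11 control and 248 creatine UMIs), and the 2 counts are no measure of balance. From 10 UMIs up they were 524 and 447. The median log2 ratio of creatine over control over all these genes was -0.00. In classical monocytes, 109 of 6127 genes (1.78%) were at least 2-fold higher and 137 (2.24%) at least 2-fold lower, with a median of 0.03.

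The type I interferon-stimulated genes had a median log2 ratio of 0.93, with 32 of 33 higher in the creatine library, 14 at least 2-fold higher and 0 at least 2-fold lower. *Isg15*, a ubiquitin-like modifier, was at 60.5 CPM (45.5 to 79.0) in the control and 314 CPM (293 to 335) with creatine, a log2 ratio of 2.37 (1.98 to 2.80). Its log2 ratio was 0.44 in classical monocytes, 0.96 in T cells and 0.46 in all cells outside the selection. *Rsad2*, which encodes the antiviral enzyme viperin, was at 12.3 and 89.8 CPM in nonclassical monocytes, a log2 ratio of 2.86 (2.00 to 3.89), and its ratio was -0.71 in classical monocytes and -0.32 in the other cells. *Ifit1* and *Ifit3*, RNA-binding antiviral genes, were at 10.1 and 55.8 CPM and at 19.1 and 99.9 CPM, with log2 ratios of 2.47 and 2.39. Across the settings the lowest log2 ratio was 0.75 for *Isg15*, 0.76 for *Ifit1*, 0.97 for *Ifit3* and 1.69 for *Rsad2*. *Isg15*, *Ifit1* and *Ifit3* thus did not stay past 2-fold under every setting, while *Rsad2* did. The promoters of *Isg15*, *Ifit1* and *Rsad2* printed above each hold the response element. *Oas1a*, which encodes an antiviral oligoadenylate synthetase, was the member that was not higher, with a log2 ratio of -0.32 (-0.96 to 0.36). Over the 33 genes, 31 had the larger ratio in nonclassical than in classical monocytes, whose median over these genes was 0.37, and all 33 had a larger ratio than in the cells outside the selection, where the median was 0.25.

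The transcription factors of these responses stood higher as well. *Irf7*, which amplifies type I interferon responses, was at 137 and 295 CPM, a log2 ratio of 1.11 (0.84 to 1.40) against 0.16 in classical monocytes. *Irf1*, the early factor of interferon-gamma responses, was at 146 and 345 CPM, a log2 ratio of 1.25 (0.98 to 1.52) against 0.65. Both factor genes had ratios above 0 in both monocyte types, the larger in nonclassical cells. *Maf*, a factor gene of macrophages, was at 56.0 and 144 CPM, a log2 ratio of 1.36 (0.94 to 1.82) against -0.06 in classical monocytes. *Nr4a1*, *Klf2*, *Klf4*, *Pou2f2* and *Spi1* had log2 ratios from -0.20 to 0.15, and the 25 factor genes had a median of 0.12 with 3 at least 2-fold higher.

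All 10 interferon-gamma GTPase genes, which attack the vacuoles of intracellular pathogens, were higher in the creatine library, 9 of them at least 2-fold, with a median of 1.24. *Gbp2* was at 178 CPM (152 to 208) in the control and 442 CPM (418 to 468) with creatine, a log2 ratio of 1.31 (1.07 to 1.56) against 0.81 in classical monocytes. *Gbp5*, which takes part in inflammasome assembly, was at 40.4 and 143 CPM, and *Irgm1* was at 108 and 242 CPM. The medians of the same 10 genes were 0.79 in classical monocytes, 0.96 in C1q macrophages, 0.41 in T cells and 0.60 in all cells outside the selection. These medians were above 0 in each group, and each of the 10 had its larger ratio in nonclassical monocytes when set against classical monocytes or against the cells outside the selection.

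Chemokine and cytokine genes had a median log2 ratio of 1.08 over 18 genes, with 16 higher, 10 at least 2-fold higher and 0 at least 2-fold lower. The medians of the same genes were -0.0051 in classical monocytes, 0.30 in C1q macrophages (15 higher) and 0.08 in the cells outside the selection. In nonclassical monocytes the median was 0.42 without cells bearing 3 or more UMIs of markers of other types. It was 0.18 when *Bst2* was not counted among these markers. *Cxcl10* was at 132 and 663 CPM, a log2 ratio of 2.33 (2.06 to 2.61) against 0.77 in classical monocytes and 1.25 in the cells outside the selection. A single cell held 84 of its 118 control UMIs, and without the top cell of each library the log2 ratio was 4.00. *Cxcl9* was at 63.9 and 291 CPM, a log2 ratio of 2.19, with 212 of the 803 creatine UMIs in 1 cell and a ratio of 2.15 without the top cells. Both chemokines kept their direction without the top cells. *Il1b*, which encodes interleukin-1 beta, was at 97.5 and 277 CPM, a log2 ratio of 1.51 (1.18 to 1.84) against -0.05 in classical monocytes. *Tnf* was at 19.1 and 45.6 CPM, a log2 ratio of 1.26 (0.52 to 2.08) against -0.40. *Ccl5*, another T cell chemokine gene, was the clearest exception, at 146 and 100 CPM, a log2 ratio of -0.54 (-0.84 to -0.23) against 1.04 in classical monocytes.

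Of the inflammasome genes, 5 of 14 were at least 2-fold higher and 0 at least 2-fold lower, with a median of 0.59. *Casp1*, the protease that matures interleukin-1 beta, was at 22.4 CPM (13.7 to 34.6) and 133 CPM (119 to 147), a log2 ratio of 2.56 (1.92 to 3.29). Its ratio was 1.84 in classical monocytes, 1.22 in T cells and 1.35 in all cells outside the selection. *Casp4*, the caspase of the noncanonical pathway, was at 53.8 and 141 CPM, a log2 ratio of 1.39 against 1.89 in classical monocytes and 1.54 in the remaining cells. Both caspase genes were therefore higher in the creatine library in each group for which a ratio is given. *Nlrp3*, *Aim2*, *Pycard* and *Gsdmd* had log2 ratios from -0.14 to 0.27, while *Il1b*, *Il18* and *Il1rn* made up the rest of the genes past 2-fold.

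**Figure D3:**
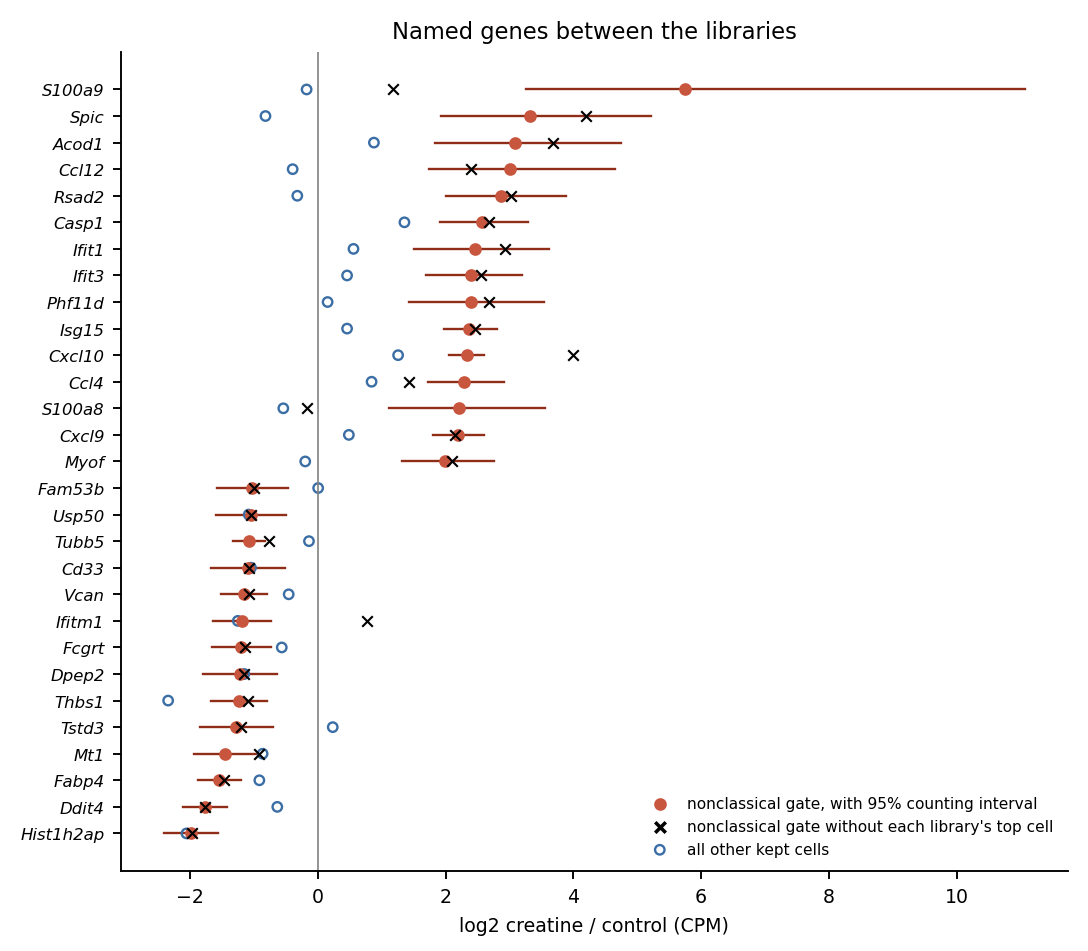
Log2 ratio of CPM, creatine over control, in nonclassical monocytes for the 15 highest and 14 of the 15 lowest genes with exact 95% intervals, beside the ratio without the top cell of each library and the ratio in all other cells. *Rsad2* (2.86) and *Isg15* (2.37) lie well above their values in the other cells (-0.32 and 0.46), while *Hist1h2ap* (-1.99) lies close to its own (-2.06).

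Other genes among the 15 highest had different roles. *Spic*, a factor gene of iron-recycling macrophages, was at 4.48 and 44.9 CPM (4 and 124 UMIs), a log2 ratio of 3.32 (1.93 to 5.22) against -0.82 in the cells outside the selection. *Acod1*, which encodes the itaconate-making enzyme, was at 5.61 and 47.8 CPM, a log2 ratio of 3.09 against 0.55 in classical monocytes. *Myof* (myoferlin) was at 21.3 and 84.7 CPM, a log2 ratio of 1.99, and *Phf11d*, an interferon-responsive gene, at 10.1 and 52.9 CPM, a log2 ratio of 2.39. These genes were spread over cells, as their log2 ratios without the top cells ran from 2.10 to 4.19. Most creatine UMIs of *S100a9*, and most of those of *S100a8*, came from 1 cell for each gene, which was not shown to be the same cell. *S100a9* gave 1 control and 167 creatine UMIs, 164 of them in 1 cell, and *S100a8* gave 7 and 100, 89 of them in 1 cell. These are calgranulin genes of neutrophils and classical monocytes, and without the top cells the log2 ratio of *S100a8* was -0.17. In other genes 1 cell held a large part. *Ccl4* had 242 of 409 and *Ccl12* 59 of 124 creatine UMIs in 1 cell, with log2 ratios of 2.29 and 3.0, and of 1.43 and 2.39 without the top cells. The ratio of *Ccl12* was -2.30 without cells bearing markers of other types and -0.89 without *Ly6c2*-bearing cells, so its direction depended on the cells kept.

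MHC class II genes had a median above 0 in nonclassical and below 0 in classical monocytes, and within the nonclassical cells the direction depended on how far inside the selection they lay. They had a median log2 ratio of 0.41 in nonclassical monocytes, 6 of 7 being higher in the creatine library and 1 at least 2-fold, and this median ran from 0.26 to 1.55 under other settings. In cells with 3 UMIs of the 3 nonclassical genes the class II genes together made up 10712 CPM in the control and 6720 CPM in the creatine library, in cells with 4 to 5 UMIs 3321 and 8016 CPM and in cells with 6 or more 3076 and 5492 CPM. The 24 control cells at the threshold were thus the highest of these bins, and there the creatine library was the lower. In classical monocytes the median was -1.29, in T cells -1.29 and in the cells outside the selection -0.71. In C1q macrophages, which were 12% of control and 5.27% of creatine cells, it was -0.18, with 3 of 7 genes higher. *Cd74*, the invariant chain, was at 1825 and 2823 CPM in nonclassical monocytes, a log2 ratio of 0.63 (0.55 to 0.71) against -1.29 (-1.35 to -1.24) in classical monocytes. *Ciita*, the master regulator of the class II genes, was at 60.5 and 122 CPM, a log2 ratio of 1.01 (0.59 to 1.45) against -0.14. *H2-Aa* had a log2 ratio of 0.13 (0.02 to 0.24) against -1.59. The direction in nonclassical monocytes was thus up for *Cd74* and *Ciita* and slight for *H2-Aa*, while the class II list stood lower in classical monocytes and in the cells outside the selection. MHC class I genes had a median of 0.36, with 18 of 18 higher and *Nlrc5*, their transactivator, at a log2 ratio of 1.05 (0.42 to 1.74). In classical monocytes the median was 0.12, with 12 of 17 higher. Over the same 18 genes it was 0.37 in C1q macrophages (17 higher), 0.09 in T cells (15 higher) and 0.15 in the cells outside the selection (16 higher). The class I median was thus about as high in C1q macrophages as in nonclassical monocytes.

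**Figure D4:**
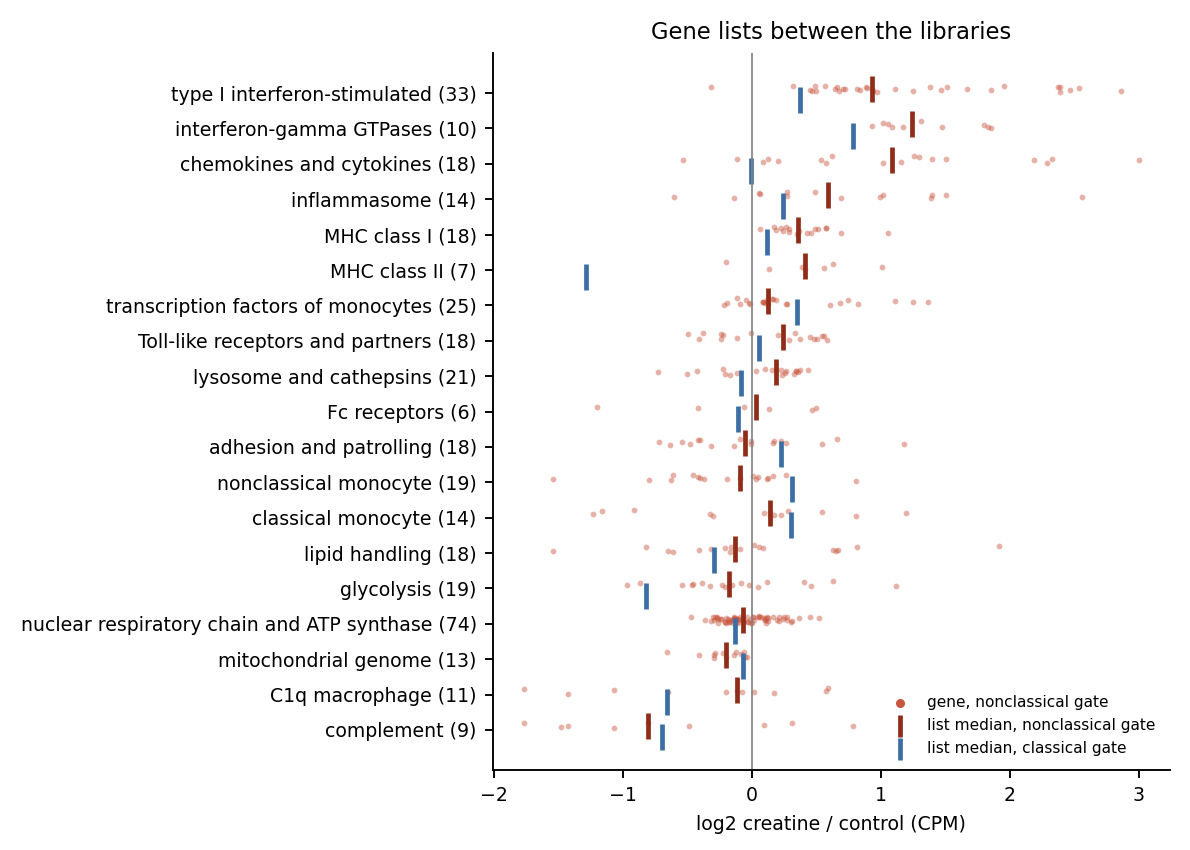
Log2 ratio of CPM, creatine over control, for the genes of each list in nonclassical monocytes (points, their number in parentheses), with the list medians in nonclassical (dark red bars) and, for the same genes, in classical monocytes (blue bars). The interferon-gamma GTPases (medians 1.24 and 0.79) have medians above 0 in both, and the MHC class II genes a median above 0 in nonclassical (0.41) and below 0 in classical monocytes (-1.29).

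The pattern was also read cell by cell after each selected cell was thinned to 2000 UMIs, which sets these cells to equal depth. They had been chosen on their counts before thinning, so depth still bore on which cells entered. When the selection was made after thinning, 68 control and 115 creatine cells reached it. The 130 control and 296 creatine nonclassical monocytes deep enough to thin held a median of 10 and 15.5 UMIs of type I interferon-stimulated genes, with quartiles of 6 to 14.75 and 10 to 21. Classical monocytes held 16 and 23.5. No GTPase UMI was found in 57.7% of control and 26.4% of creatine nonclassical monocytes, against 23.6% and 18.9% of classical ones. Both quartiles of the interferon-stimulated genes stood higher in the creatine library, and the nonclassical monocytes of the creatine library came close to control classical monocytes in these genes. The median of MHC class II UMIs was 1 and 3 in nonclassical and 12 and 2 in classical monocytes.

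Shares of thinned cells with a UMI were compared for single genes. *Cxcl9* had one in 6.15% (2.69 to 11.8) of control and 9.80% (6.66 to 13.8) of creatine nonclassical monocytes, shares whose intervals overlap, against 2.77% and 2.17% of T cells. *Casp1* had a UMI in 3.85% of control and 24.7% of creatine nonclassical monocytes, against 4.31% and 8.17% of T cells. *Cxcl10* had a UMI in 5.38% and 20.6% of nonclassical monocytes, in 18.9% and 42.1% of classical monocytes and in 1.60% and 4.79% of T cells. *Isg15* had one in 10.0% and 25.7% of nonclassical monocytes, against 10.5% and 15.8% of T cells. Free RNA in the droplets can give such UMIs, and the control nonclassical share of *Isg15* and *Casp1* was at or below the share in T cells. *Ear2* had a UMI in 56.9% and 43.9% of nonclassical monocytes, 4.05% and 4.74% of classical monocytes and 0.0615% and 0.0504% of T cells, the last of these shares being near 0. *Ly6c2* had one in 29.2% and 43.9%, against 48.2% and 43.5% of T cells, some of which make Ly6C themselves.

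**Figure D5:**
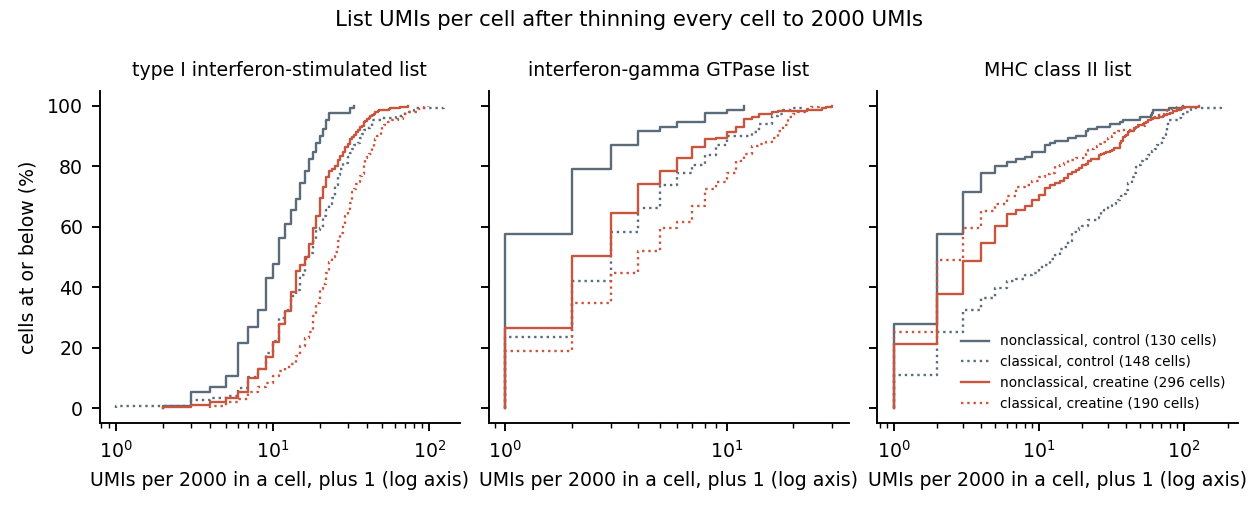
Cumulative share of cells by the UMIs of type I interferon-stimulated, interferon-gamma GTPase and MHC class II genes per cell after thinning to 2000 UMIs, for nonclassical and classical monocytes of each library. The creatine nonclassical curve for interferon-stimulated genes lies to the right of the control curve (medians 15.5 and 10 UMIs).

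Few markers of monocyte identity passed 2-fold between the libraries. The median log2 ratio of the 19 nonclassical marker genes was -0.09, with 8 higher, 0 at least 2-fold higher and 1 at least 2-fold lower. In classical monocytes the same 19 genes had a median of 0.31 with 14 higher, and 5 of them had the larger ratio in nonclassical monocytes. *Ceacam1* had a log2 ratio of 0.01 (-0.23 to 0.25), *Nr4a1* -0.09 (-0.24 to 0.06) and *Cx3cr1* 0.26 (0.11 to 0.42). *Ear2* was lower in the creatine library, with a log2 ratio of -0.63 (-0.77 to -0.49), as were *Spn* at -0.42 and *Cd300e* at -0.80. *Fabp4* was the member past 2-fold, at -1.54 (-1.88 to -1.21), and its ratio in the cells outside the selection was -0.92. Across the settings its ratio in nonclassical monocytes ran from -1.81 to -0.19, so it did not stay past 2-fold in all of them. Of 14 classical markers, 1 was at least 2-fold higher and 2 lower, with a median of 0.14 that was -0.28 without cells bearing markers of other types. *Ly6c2* was at 330 CPM (293 to 369) in the control and 753 CPM (721 to 786) in the creatine nonclassical monocytes, a log2 ratio of 1.19 (1.01 to 1.37) against 0.34 in classical monocytes. *Vcan* (versican) ran the other way, at 127 and 56.5 CPM, a log2 ratio of -1.17, and *Ccr2* had a ratio of 0.17.

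*Ly6c2* moved with the interferon genes, so the comparison was repeated without the selected cells that held a *Ly6c2* UMI, a choice made after the data were seen. This left 58 control and 104 creatine cells. In them the median log2 ratio was 0.70 for the type I interferon-stimulated genes, 1.11 for the GTPases, 1.31 for the chemokines and 1.31 for the MHC class II genes, while 94 genes were at least 2-fold higher and 26 at least 2-fold lower. The direction of these lists was thus the same without the *Ly6c2*-bearing cells. In cells with a sum of at least 6 UMIs of *Ace*, *Adgre4* and *Treml4*, the type I interferon-stimulated genes together made up 4659 CPM in the control and 8333 CPM in the creatine library, and the GTPases 473 and 1353 CPM. When every cell with 3 or more UMIs of B, NK, neutrophil, plasmacytoid dendritic or melanoma markers was left out, a list that holds the interferon-stimulated gene *Bst2*, 51 control and 56 creatine cells remained. The median ratio was then 0.39 for the interferon-stimulated genes and 0.54 for the GTPases and 0.42 for the chemokines, and 35 genes were at least 2-fold higher.

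Several genes lower in the creatine library were lower outside the nonclassical cells too. *Hist1h2ap*, a histone gene, was at 123 and 31.1 CPM, a log2 ratio of -1.99 against -2.06 in the cells outside the selection. Of its 3′ windows, 93.2% occur in other transcripts too. *Thbs1* (thrombospondin-1) had a ratio of -1.24 against -2.35 and *Mt1*, a metallothionein gene, -1.45 against -0.87. These differences were thus not particular to the monocytes. *Ddit4*, an inhibitor of mTORC1 that is induced by stress and glucocorticoids, was at 174 and 51.1 CPM, a log2 ratio of -1.77 (-2.11 to -1.43) against -1.73 in classical monocytes and -0.64 in the cells outside the selection. *Fcgrt*, the neonatal Fc receptor gene, was at 80.7 and 35.1 CPM, a log2 ratio of -1.20 (-1.66 to -0.74) against 0.12 in classical monocytes. *Ifitm1* had 58 of its 73 control UMIs in 1 cell, and its ratio was -1.19 with and 0.77 without the top cells. *Tstd3*, *Dpep2*, *Cd33*, *Tubb5*, *Usp50* and *Fam53b* were also among the 15, with log2 ratios from -1.28 to -1.04. Among the genes lower in the creatine library, *Tubb5* had 48 of 219 control UMIs and *Mt1* 25 of 69 in 1 cell, with ratios of -0.77 and -0.92 without the top cells. The ratio of *Dpep2* was -0.037 without cells bearing markers of other types when *Bst2* was not counted, and that of *Fam53b* -0.096 without *Ly6c2*-bearing cells.

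The complement list includes C1q genes, whose sum the selection limits, so its values are partly a description. Complement genes had a median of -0.80 with 4 of 9 at least 2-fold lower and 0 at least 2-fold higher. The median was 0.011 without *Ly6c2*-bearing cells and -0.016 without cells bearing any listed marker of other types, but -0.76 when only cells with defining markers of those types were left out. *C1qa*, whose sum with *C1qb* and *C1qc* the selection limits, was at 38.1 and 14.1 CPM, and 45.5% of control and 70.1% of creatine cells had no C1q UMI. C1q macrophages, a possible source of free C1q RNA, were 12% of control and 5.27% of creatine cells, and their part in these values was not tested. Genes of dividing cells had a median of -1.36 over 6 genes, 4 at least 2-fold lower, with *Mki67* at 29 and 14 UMIs, or 32.5 and 5.07 CPM. In cells with at least 6 UMIs of the 3 nonclassical genes this median was -0.14.

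Metabolic genes stood close to the median of all genes in nonclassical monocytes. Glycolysis genes had a median log2 ratio of -0.18, against -0.83 for the same genes in classical monocytes, with *Gapdh* at -0.15 and *Ldha* at -0.23 against -0.86 and -1.0. Nuclear respiratory chain genes had a median of -0.07 with 0 of 74 past 2-fold in either direction, and the 13 genes of the mitochondrial genome had a median of -0.20 with 0 higher. Creatine genes were scarce. *Slc6a8*, the creatine transporter gene, gave 0 UMIs in the control, a count that allows up to 3 as a 1-sided 95% limit, and 3 UMIs in the creatine library, so no difference was detectable at this depth. *Ckb* (creatine kinase B) was at 53.8 and 56.5 CPM, a log2 ratio of 0.07 (-0.41 to 0.57), and *Gamt*, of creatine synthesis, had a ratio of 0.13 (-0.79 to 1.15).

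Further lists had medians near that of all genes. Fc receptor genes had a median of 0.03 over 6, with *Fcgrt* at -1.20 as the gene past 2-fold. *Fcgr4* was at 238 and 327 CPM, a log2 ratio of 0.46 (0.24 to 0.68). Toll-like receptor genes and their partners had a median of 0.24 with 0 of 18 past 2-fold, lysosome genes 0.18 over 21 genes and survival genes 0.19 over 15. Adhesion genes had a median of -0.05, with *Icam1* at 68.4 and 155 CPM, a log2 ratio of 1.18 (0.79 to 1.59) against 0.66 in classical monocytes, as the gene past 2-fold. *Icam1* encodes the ligand of LFA-1. Checkpoint ligands and inhibitory receptors had a median of 0.16 over 15 genes, with *Cd40*, a costimulatory receptor gene of the same list, past 2-fold at 30.3 and 85.1 CPM, a log2 ratio of 1.49 (0.91 to 2.12) against 1.15 in classical monocytes. Heat shock genes had a median of 0.15 over 11, with *Hsph1*, a chaperone gene, past 2-fold at 1.28 (0.043 to 2.80). Immediate early genes, which are induced when tissue is dissociated, had a median of 0.10 over 21.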

How the data were processed

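The authors deposited raw UMI counts per gene and cell for each library, made with Cell Ranger 3.0.2 on mm10 per the submitters' processing notes, not normalized. Their gene and barcode lists hold no measurement. The control library held 7649 cells and 80434564 UMIs, the creatine library 6503 and 72898494. The limit of 25% mitochondrial UMIs removed 408 and 274 cells, and the kept cells had a median of 7688 and 8475 UMIs. The study's aggregated and clustered data were not used here, and the study's minimum of 300 UMIs and 100 genes removed no further cell.

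The UMIs of each selection were summed and scaled to CPM. T cells were kept cells with at least 3 UMIs of *Cd3d*, *Cd3e* and *Cd3g* and 0 of the nonclassical and C1q genes. Ratios carry exact conditional binomial, CPM exact Poisson and shares Clopper-Pearson 95% intervals, all for counting error only. In a ratio, 0.5 was added to both counts where either was 0. A gene was called at 2-fold, with at least 50 UMIs. No doublet caller was run. No test was made, since each condition is 1 library. Named genes were all members of the lists described, and the 15 highest and 15 lowest genes of each comparison with at least 100 UMIs, without gate genes and unnamed gene models. The members, lists and thresholds were chosen with earlier results of these data known. Of 600 list symbols, 4 were not in the files. Scripts in Python 3.11.15 (numpy 2.4.6, scipy 1.17.1, pandas 2.3.3) and edgeR 4.0.16 in R 4.3.3, used for TMM factors alone, were tested on simulated data. Results for some genes are not reported here. Positions are from the mm10 annotation and promoters from RefSeq.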

Additional observations from a re-analysis of the deposited data

Results flagged for a closer look

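Among the list medians and the 30 genes with the largest ratios, 4 results had creatine-to-control ratios of opposite sign in nonclassical and in classical monocytes, with both medians at least 0.25 from 0 or both counting intervals clear of 0. For this, each list median was read over the genes measured in that monocyte type. Other genes of the text had opposite signs without meeting these limits or outside the 30, such as *Ccl5*, *Bcl2a1b* and *Fth1*. With 1 library per condition the difference between the monocyte types was not tested.

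The MHC class II genes had a median log2 ratio of 0.41 in nonclassical and -1.29 in classical monocytes, a gap of 1.71. *Rsad2*, the viperin gene, had 2.86 and -0.71, a gap of 3.57. *Ccl12*, a chemokine gene of the *Ccl2* cluster, had 3.0 and -0.82, a gap of 3.82, with 59 of its 124 creatine UMIs in 1 cell, and had the classical sign at -2.30 without cells bearing markers of other types and at -0.89 without *Ly6c2*-bearing cells. The 4 neutrophil marker genes measured in nonclassical cells, which include *S100a8* and *S100a9*, had medians of 1.13 and -1.46 when the same genes were read in both. Over the 3 neutrophil marker genes measured in classical monocytes the median was -0.0063, so this list is not among the 4 results. *S100a8* had 2.21 and -3.46, a gap of 5.67, with 89 of its 100 creatine UMIs in 1 cell and a log2 ratio of -0.17 without the top cell of each library, the sign it has in classical monocytes.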

How the results depend on the processing

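The 4 summaries were recomputed under other limits, scalings and filters, and those on single top cells, *Ly6c2*, *Bst2* and the 16 defining markers were chosen after seeing the data. TMM and median-of-ratios scaling changed no direction of a list median and no count by over 1.5 times. Of the values that answer a comparison, 243 stayed close, 46 moved and 1 reversed, and for single genes these were 1031, 127 and 12. A single-gene value counts as reversed only where the counting interval of the value as reported was clear of 0. The same rule was used for list medians, with limits set from the median width of the intervals of their genes. The median of the complement genes was the 1 counted as reversed. The median of the classical markers, 0.14 as reported, also turned its sign without cells bearing other markers, as did those near 0 of the nonclassical markers (-0.09 to 0.11) and C1q macrophage markers (-0.12 to 0.015), and that of the nuclear respiratory genes (-0.07 to 0.041) without *Ly6c2*-bearing cells. The cause of each move was not tested.

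The share of nonclassical monocytes was 1.16% and 3.0% from 6 UMIs up and 6.04% in the creatine library from 2 UMIs up. It was 1.03% and 1.94% after thinning (ratio 1.89). Without cells bearing markers of other types it was 0.704% and 0.899% (ratio 1.28), and 0.884% and 1.32% with *Bst2* not counted (ratio 1.49). Against classical monocytes, 280 genes were higher and 177 lower from 10 UMIs up, 156 lower with the limit of 6 and 166 without cells bearing other markers. Between the libraries 524 were higher and 447 lower from 10 UMIs up, 35 and 28 without cells bearing other markers, 60 and 25 with *Bst2* not counted, 94 and 26 without *Ly6c2*-bearing cells, and 41 lower with the limit of 6. The number of genes that reach the UMI limit can differ between these settings, so the counts have no common base.

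Without cells bearing other markers, median log2 ratios were 0.39 (type I interferon-stimulated), 0.54 (GTPases), 0.42 (chemokines), 1.55 (MHC class II), -0.28 (classical markers), -0.016 (complement) and -0.12 (mitochondrial genome). With *Bst2* not counted they were 0.18 (chemokines), 1.10 (MHC class II), -0.30 (classical markers) and -0.18 (complement). Without *Ly6c2*-bearing cells they were 0.61 (MHC class I), 1.31 (MHC class II), 0.011 (complement, reversed) and -0.088 (mitochondrial genome). MHC class II stood at 0.28 with the limit of 2, 0.66 with 6, 0.76 with equal weight per cell, 0.71 without top cells and 0.26 from 10 UMIs up. With the limit of 6, the mitochondrial genome was at -0.11 and dividing cell genes at -0.14.

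Reversed genes were *Spp1* (0.38 against classical cells of at least 10 *Ly6c2* and *Vcan* UMIs, creatine), *S100a9* (-0.30 without cells bearing other markers, -0.62 with *Bst2* not counted, -1.63 without the 16 defining markers), *S100a8* (-0.30 without cells bearing other markers, -0.17 without top cells), *Ccl12* (-2.30 without cells bearing other markers, -0.89 without *Ly6c2*-bearing cells) and *Ifitm1* (1.05 with the limit of 6, 0.15 with equal weight, 0.77 without top cells, 2.54 without *Ly6c2*-bearing cells). No paired analysis was possible because each condition is 1 library. The 892059 UMIs of the control nonclassical cells limit what can be said of low genes.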

Other observations

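Single members of the lists also had ratios away from 0 in the nonclassical monocytes. *Nr1h3*, the liver X receptor alpha gene, gave 6 UMIs (6.73 CPM) in the control and 70 UMIs (25.3 CPM) with creatine, giving a log2 ratio of 1.91 (0.72 to 3.41) against 0.22 in classical monocytes. *Batf3*, a transcription factor gene of type 1 dendritic cells, was at 35.9 and 85.5 CPM, a log2 ratio of 1.25 (0.72 to 1.83) against 0.53, in cells chosen to hold no *Xcr1* or *Clec9a* UMI. *Bcl2a1b*, a survival gene whose 3′ windows are largely shared with its copies, was at 101 and 188 CPM, a log2 ratio of 0.90 (0.57 to 1.24) against -1.29. *Fth1*, the ferritin heavy chain gene, was at 3102 and 3755 CPM, a log2 ratio of 0.28 (0.21 to 0.34) against -0.86. These genes were named after their values were seen.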
